A study of Mus musculus with 123 samples.

Results

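The HCN pacemaker channel genes examined here were Hcn2, Hcn3 and Hcn4. They were found by their symbols among the 24134 genes measured, and all 3 were present. HCN channels are opened by hyperpolarization and pass a mixed sodium and potassium current, called Ih, that pulls the membrane back toward firing threshold. Cyclic AMP binds a domain in their cytoplasmic tail and makes opening easier, most of all in HCN2 and HCN4 and little in HCN3. In dorsal root ganglion (DRG) sensory neurons Ih is best known from large, fast-conducting cells, and HCN2 in nociceptors is known for its part in inflammatory and neuropathic pain.

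The study asked how different sensory neurons respond to sciatic nerve transection (SNT), made on the right side of adult mice 2 months old, with the DRG of the opposite side of the same animals as control. Single neurons were picked by hand, and their polyadenylated RNA was amplified by Smart-seq2, which tags no single molecules. Day 3 cells came from the L5 DRG of F1 mice (female in the published methods, sex not labelled) of a CAST/Eij male and a C57BL/6 female, and were read as 50 bp single ends on a HiSeq2000. Day 7 cells came from the L3 to L5 DRG of C57BL/6 mice of both sexes, and were read as 75 bp paired ends on a NextSeq500. Time after injury therefore cannot be told apart from strain, sex, ganglia, instrument and read length, and no value of day 3 was tested against day 7. The 6 pooled libraries were made at day 3 from the F1 mice. Picked neurons of each side were lysed together, in a number that differs between the deposited description and the published methods, and the lysate was divided into 3 parts, so the 3 libraries of a side are parts of 1 pool and their spread is technical. The p-values of edgeR, and the words called, rose and fell in the pools, measure a difference against this technical spread only and do not cover differences between animals.

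After the authors' removal of outliers, 18 control and 41 SNT-side cells remained at day 3, and 14 control and 33 SNT-side cells at day 7. Median totals per kept cell were 862619 counts in control day 3, 1323932 in SNT day 3, 738947 in control day 7 and 575179 in SNT day 7. Totals of the pooled libraries were 563462 to 839135 counts for control and 1148849 to 2003817 for SNT. Levels are given as CPM, the count of a gene per 1000000 counts of its library. No animal is named for a cell, so the cells of 1 side and day are 1 sample: their SD describes cells, and no test was made between sides. Intervals on shares of cells and on summed counts are 95% and cover counting error at most. Those on summed counts treat every read as independent and leave out the spread between cells. Reads were amplified without tags on single molecules, so these intervals are too narrow and do not test a difference between sides.

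The pooled libraries carry a doubt about side. The names of their columns give 1 assignment of libraries to sides and the identifier line gives the reverse, while the source label calls all 6 intact. The column names were used, under which Atf3, a transcription factor induced by axotomy, averaged 1550 ± 125 CPM in SNT libraries (SD over the 3 parts of 1 pool) and 12.8 ± 6.71 CPM in control libraries. All 8 injury markers were called higher in the SNT libraries so named (median log2 5.89). In day 3 cells, whose side is labelled, mean Atf3 ran the same way, 17.7 CPM in control and 1480 CPM in SNT-side cells. Under the other pairing every pooled difference below, those of the injury markers included, would change sign.

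In pooled neurons at day 3 none of the 3 HCN genes passed the test. Hcn2 stood at 13.8, 24.9 and 14.4 CPM in SNT libraries 1, 2 and 3, and at 1.3, 31.7 and 15.1 CPM in control libraries 1, 2 and 3. The control side thus held both the lowest and the highest Hcn2 library and enclosed all 3 SNT libraries, and its lowest value rested on 1 count. The log2 difference of Hcn2 was 0.06 (SE 0.49, 95% interval −0.93 to 1.06, adjusted p = 0.946, by the quasi-likelihood test of edgeR, adjusted over 13509 genes). It had the other sign without control library 1 (−0.51), without SNT library 2 (−0.20) and with scaling by library size alone (−0.09), and it was 1.18 without control library 2.

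Hcn3 stood at 10.0, 17.5 and 9.6 CPM in the SNT libraries and at 13, 17 and 11.8 CPM in the control libraries. SNT libraries 1 and 3 lay under the lowest control library and SNT library 2 lay above the highest, so the sides overlapped. The log2 difference was −0.23 (SE 0.46, 95% interval −1.16 to 0.71, adjusted p = 0.781 by edgeR). Hcn4, with 1 to 4 counts per library, stood at 1.25, 2.77 and 2.13 CPM in the SNT libraries and at 2.6, 3.4 and 1.68 CPM in the control libraries. These values overlapped, and the log2 difference of −0.37 had an SE of 1.05 (95% interval −2.51 to 1.76, adjusted p = 0.846 by edgeR), and this interval holds changes of over 2-fold in either direction. Across all 13509 genes tested, 16% were called in either direction, 8.85% higher and 7.1% lower on the SNT side, that is, changed more than 2-fold with an adjusted p under 0.05. Of the 3 HCN genes, 0 were called by edgeR, DESeq2 or limma, and 0 had an unadjusted p below 0.05 by edgeR. Because the pools are bulk samples, fewer cells of a type and less RNA per cell cannot be told apart.

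**Figure D1:**
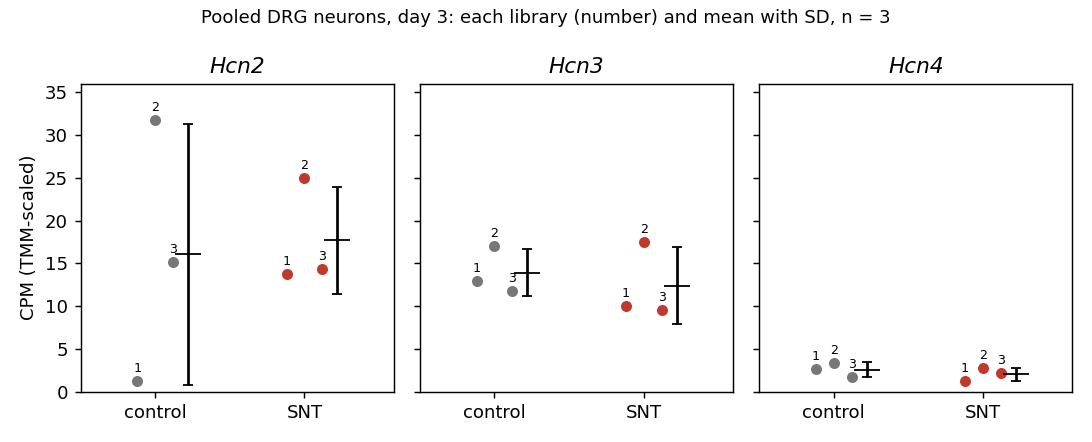
TMM-scaled CPM of Hcn2, Hcn3 and Hcn4 in each pooled library of day 3 (numbered points, 3 per side), with the mean and SD beside them. The control libraries of Hcn2 run from 1.3 to 31.7 CPM and enclose the SNT libraries.

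In day 3 single neurons Hcn2 was lower on the SNT side on average, with wide overlap. Its lowest, median and highest values were 2.38, 12.6 and 149 CPM in the 18 control cells, and 0, 7.51 and 64.1 CPM in the 41 SNT-side cells. Every SNT-side cell lay under the highest control cell, and 8 lay under the lowest. Mean Hcn2 was 23 ± 33.4 CPM in control cells and 12.4 ± 15.8 CPM in SNT-side cells (SD over cells), a log2 ratio of mean CPM + 1 of −0.84, which was −0.45 without the highest cell of each side and −0.31 without the highest control cell alone, the latter added after the data were seen. Hcn2 was above 10 CPM in 10 of 18 control cells (55.6%, exact Clopper-Pearson interval 30.8% to 78.5%) and in 16 of 41 SNT-side cells (39%, 24.2% to 55.5%). Summed over cells, Hcn2 came to 21.7 CPM in control cells (exact Poisson interval 19.4 to 24.1) and 12 CPM in SNT-side cells (11.1 to 13).

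Hcn3 had nearly the same mean on both sides at day 3. Its lowest, median and highest values were 0, 16.2 and 61.5 CPM in control cells and 2.87, 17.5 and 53.4 CPM in SNT-side cells. The range of the SNT-side cells lay inside that of the control cells. The means were 23.4 ± 20.5 and 21.7 ± 14.2 CPM, a log2 ratio of −0.10, and Hcn3 was above 10 CPM in 55.6% of control cells (30.8% to 78.5%) and 70.7% of SNT-side cells (54.5% to 83.9%). Summed over cells, Hcn3 came to 26.5 CPM in control cells (Poisson interval 23.99 to 29.2) and 20.67 CPM in SNT-side cells (19.45 to 21.94). The log2 ratio of these sums was −0.34.

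Hcn4, best known as the pacemaker subunit of the sinoatrial node, was low at day 3. It ran from 0 through a median of 0.438 to 26.2 CPM in control cells and from 0 through 2.28 to 41.8 CPM in SNT-side cells. In SNT-side cells 1 value exceeded every control cell, and 9 of 18 control cells and 13 of 41 SNT-side cells had no count. The means of 4.33 ± 7.2 and 5.12 ± 7.51 CPM gave a log2 ratio of 0.20, which was −0.16 when counts were summed over cells and 1.19 between medians. The share above 10 CPM was 16.7% (3.58% to 41.4%) in control cells and 17.1% (7.2% to 32.1%) in SNT-side cells. None of the 3 genes had a log2 ratio of means beyond 1 at day 3, a size reached by 13.2% of the 13663 genes that averaged 1 CPM or more.

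In day 7 single neurons Hcn2 and Hcn4 were higher on the SNT side on average. Hcn2 had a lowest, median and highest value of 0, 28.5 and 117 CPM in the 14 control cells, and of 1.82, 43.1 and 368 CPM in the 33 SNT-side cells. Of the SNT-side cells 10 lay above every control cell, and the remaining SNT-side cells lay within the control range. The means were 38.5 ± 34.4 and 79.4 ± 84.4 CPM, a log2 ratio of 1.03, which was 0.58 between medians and 0.87 with counts summed over cells. The share of cells above 10 CPM was alike, 85.7% (57.2% to 98.2%) in control and 84.8% (68.1% to 94.9%) in SNT-side cells. The sides differed in the median and among the highest cells.

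Hcn4 at day 7 ran from 0 through a median of 0 to 7.94 CPM in control cells, and from 0 through 3.64 to 33.3 CPM in SNT-side cells. Of the 33 SNT-side cells 13 lay above every control cell, and 11 had no count. The means were 1.38 ± 2.34 and 7.49 ± 8.81 CPM, a log2 ratio of 1.84, which fell to 0.62 with a pseudocount of 10 CPM in place of 1 CPM. No control cell of 14 passed 10 CPM (interval 0% to 23.2%), against 10 of 33 SNT-side cells (30.3%, 15.6% to 48.7%). The summed counts behind these values were 16 in control cells (1.52 CPM, Poisson interval 0.867 to 2.46) and 142 in SNT-side cells (7.2 CPM, 6.07 to 8.49).

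Hcn3 at day 7 ran from 0 through 8.99 to 61.6 CPM in control cells and from 0 through 11.8 to 76.5 CPM in SNT-side cells. Of the SNT-side cells 1 lay above the control range. The means were 14 ± 16.9 and 16.3 ± 17.5 CPM, a log2 ratio of 0.21. Thus 2 of the 3 HCN genes, Hcn2 and Hcn4, had a log2 ratio beyond 1 at day 7, where 9.86% of 13320 genes did.

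Atf3 divided the SNT-side cells into a low and a high group with no cell between 23 and 951 CPM at day 3 or between 13.9 and 704 CPM at day 7. A limit of 100 CPM, chosen after seeing the data, put 30 of 41 SNT-side cells at day 3 and 12 of 33 at day 7 above it, and no control cell. All 10 SNT-side cells of day 7 that exceeded every control cell in Hcn2 had low Atf3, from 0 to 13.9 CPM. In the 21 Atf3-low cells of day 7 Hcn2 ran from 9.38 through 103 to 368 CPM, and in the 12 Atf3-high cells from 1.82 through 34 to 64.7 CPM, all within the control range. Mean Hcn2 was 107 ± 95.1 CPM in the former and 31.9 ± 20.3 CPM in the latter, a log2 ratio to control cells of 1.44 and −0.26. The SNT-side cells with Hcn2 above every control cell were thus all low in Atf3. The Atf3 groups also differed in Nefh, with medians of 3860 CPM (347 to 8010 CPM) in low and 1510 CPM (480 to 2820 CPM) in high cells, and the 10 cells of highest Hcn2 had a median Nefh of 5920 CPM (1540 to 8010 CPM). Mean Calca was 3660 CPM in low and 85 CPM in high cells (medians 66.3 and 0 CPM). Mean Pvalb was 235 and 29.9 CPM, though its medians ran the other way (7.7 and 13.4 CPM). P2rx3 was at or under 10 CPM in 12 of 21 low and 11 of 12 high cells. Atf3 was not separated from Nefh or these other markers here.

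Hcn4 at day 7 had like means in both Atf3 groups, at 7.6 ± 9.82 CPM in low and 7.3 ± 7.1 CPM in high cells (log2 1.85 and 1.8 to control), but medians of 2.95 and 6.03 CPM. Of the SNT-side cells above 10 CPM of Hcn4, 7 of 10 were low in Atf3, against 21 of all 33. Mean Hcn3 was 13.9 ± 19.2 and 20.6 ± 13.6 CPM (log2 −0.01 and 0.53). At day 3 the ratio of Hcn2 to control was −1.09 in 11 Atf3-low and −0.76 in 30 Atf3-high SNT-side cells. These groups also differed in cell type markers. P2rx3 was at or under 10 CPM in 1 of the 11 low and 13 of the 30 high cells. Median Calca was 2850 and 137 CPM, and median Nefh 105 and 193 CPM.

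Depth differed between sides, so detection was also compared after each cell was thinned to 200000 counts, without losing a cell. At day 3 a count of Hcn2 was found in 77.8% of control and 65.9% of SNT-side cells after thinning (100% and 85.4% before). At day 7 a count of Hcn4 was found in 14.3% of control and 51.5% of SNT-side cells after thinning (35.7% and 66.7% before). Hcn4 then averaged 0.21 counts per control cell and 1.24 per SNT-side cell, levels near that of a single count.

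Both sexes gave the same order of mean levels between sides at day 7 for Hcn2 and Hcn4. Mean Hcn2 was 52.2 ± 44.7 CPM in 7 control cells and 97.1 ± 94.3 CPM in 16 SNT-side cells of females, and 24.8 ± 11.1 CPM in 7 control cells and 62.8 ± 72.8 CPM in 17 SNT-side cells of males. Mean Hcn4 was 1.37 ± 2.96 and 9.97 ± 8.12 CPM in females, and 1.39 ± 1.77 and 5.15 ± 9.03 CPM in males. In males the median of Hcn4 was 0 on both sides, 9 of 17 SNT-side cells had no count and 3 were above 10 CPM. The sexes overlapped for both genes, and their difference was not tested.

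**Figure D2:**
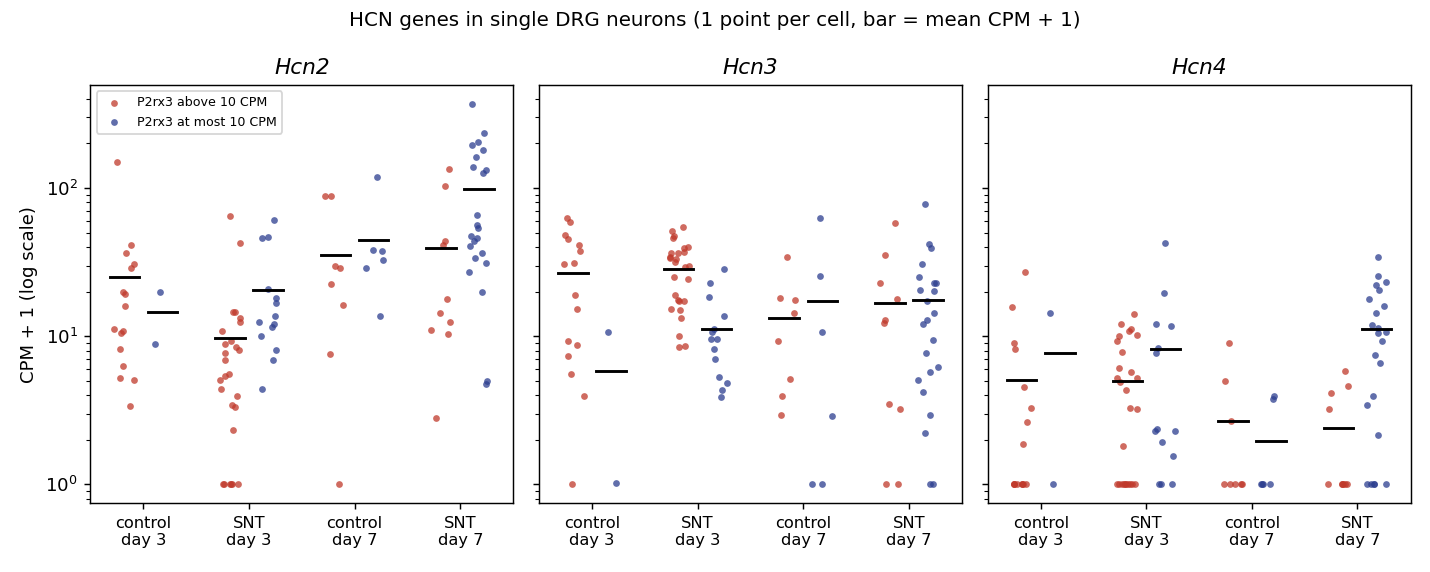
CPM + 1 (log axis) of Hcn2, Hcn3 and Hcn4 in each kept cell by side and day, split by P2rx3 above 10 CPM (red, left) or at most 10 CPM (blue, right), with bars at the mean. The 10 SNT-side cells above 10 CPM of Hcn4 at day 7 are all blue.

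P2rx3, an ATP-gated channel of non-peptidergic nociceptors, was used to divide the cells at 10 CPM. The nearest cells to this limit had 9.47 and 13.8 CPM of P2rx3 at day 3 and 8.83 and 12.9 CPM at day 7, and 8 of 59 and 7 of 47 cells lay between 5 and 20 CPM. P2rx3 was above the limit in 16 of 18 control and 27 of 41 SNT-side cells at day 3, and in 8 of 14 control and 10 of 33 SNT-side cells at day 7. P2rx3 itself differed between sides. It fell in the pools (log2 −1.23, SE 0.13, adjusted p = 5.4e-10 by edgeR), its mean was 803 CPM in control and 891 CPM in SNT-side cells of day 3 and 154 and 79.2 CPM at day 7, and its median above the limit at day 3 was 849 and 1360 CPM. The class may therefore not hold the same kind of cell on both sides. In SNT-side cells of day 3, median Nefh, the heavy neurofilament chain of large myelinated neurons, was 86.8 CPM above the P2rx3 limit and 517 CPM at or under it. At day 7 median Nefh was close in both classes of SNT-side cells (2690 and 2790 CPM), whereas median Calca, which encodes the peptide CGRP, was 5650 and 0 CPM, so P2rx3 above 10 CPM did not mark Nefh-poor cells there.

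At day 3 Hcn2 was lower on the SNT side among cells with P2rx3 above 10 CPM. Hcn2 ran from 2.38 through 12.6 to 149 CPM in the 16 control cells of this class and from 0 through 4.55 to 64.1 CPM in the 27 SNT-side cells. No SNT-side cell exceeded the highest control cell, 8 lay under the lowest, and 6 had no count. Means of 24.2 ± 35.3 and 8.70 ± 13.8 CPM gave a log2 ratio of −1.38, which was −0.85 with a P2rx3 limit of 1 CPM. It was −1.16 without the highest cell of each side and −0.80 without the highest control cell alone, 2 alternatives added after the data were seen. Mean Nefh was also lower in these SNT-side cells (465 and 165 CPM, medians 68.8 and 86.8 CPM). Hcn2 was above 10 CPM in 56.2% of these control cells (29.9% to 80.2%) and 22.2% of these SNT-side cells (8.62% to 42.3%). Hcn3 in the same cells had means of 25.7 ± 20.6 and 27.6 ± 13.3 CPM (log2 0.10), and Hcn4 of 4.03 ± 7.2 and 4.01 ± 4.21 CPM (log2 −0.01). Hcn2 was thus the 1 gene of the 3 beyond a log2 ratio of 1 in this class, a size reached by 13.3% of 13578 genes.

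Only 2 control cells of day 3 had P2rx3 at or under 10 CPM, with Hcn2 at 7.89 and 19 CPM. The 14 SNT-side cells of that class ran from 3.4 through 12.2 to 59.9 CPM of Hcn2 and reached both above and below this pair. The log2 ratio of 0.51 in this class rests on these 2 control cells, and with a P2rx3 limit of 100 CPM it was −0.89. Within the SNT side, Hcn2 and Hcn3 differed between the P2rx3 classes in opposite directions. Mean Hcn2 was 19.6 ± 17.4 CPM at or under the limit and 8.70 CPM above it (log2 1.09), while mean Hcn3 was 10.3 ± 7.37 and 27.6 CPM (log2 −1.34). Hcn3 exceeded 10 CPM in 24 of the 27 SNT-side cells above the P2rx3 limit (88.9%, 70.8% to 97.6%) and in 5 of 14 at or under it (35.7%, 12.8% to 64.9%).

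At day 7 mean Hcn2 and mean Hcn4 were higher on the SNT side among cells with P2rx3 at or under 10 CPM. Hcn2 ran from 12.8 through 33.9 to 117 CPM in the 6 control cells of this class and from 3.73 through 53.0 to 368 CPM in the 23 SNT-side cells. Of the SNT-side cells 9 lay above every control cell and 2 below every control cell. The means were 43.8 ± 37 and 97.2 ± 91.9 CPM, a log2 ratio of 1.13, which was 0.63 between medians, an alternative added after the data were seen. Hcn4 ran from 0 through 0 to 2.95 CPM in the control cells and from 0 through 9.57 to 33.3 CPM in the SNT-side cells, 15 of which lay above every control cell. Some markers of large neurons differed within this class too. Mean Pvalb was 6.86 CPM in control and 229 CPM in SNT-side cells, with medians of 6.3 and 14.2 CPM. Mean Spp1 was 63.8 and 688 CPM, with medians of 31.6 and 340 CPM. Nefh was slightly lower on the SNT side, with means of 3680 and 3470 CPM and medians of 3220 and 2790 CPM. The Hcn4 means were 0.952 ± 1.48 and 10.1 ± 9.34 CPM, a log2 ratio of 2.51, and it was above 10 CPM in 0 of 6 control cells (0% to 45.9%) and 10 of 23 SNT-side cells (43.5%, 23.2% to 65.5%).

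Hcn3 in this class had means of 16.3 ± 24.1 and 16.5 ± 17.6 CPM (log2 0.02), and its ratio was 0.92 between medians, 1.09 without the highest control cell and 1.79 with a P2rx3 limit of 1 CPM, which leaves 3 control cells. At the limit of 10 CPM 2 of the 3 genes were beyond a log2 ratio of 1, against 14.6% of 13187 genes. Among cells with P2rx3 above 10 CPM at day 7, 0 of the 3 genes were beyond 1, against 14.5% of 13188 genes. Mean Hcn2 there was 34.5 ± 34.3 CPM in 8 control cells and 38.4 ± 45 CPM in 10 SNT-side cells (log2 0.15). The Hcn2 ratio was −0.68 between medians, an alternative added after the data were seen, and 0.79 with a P2rx3 limit of 1 CPM. In Hcn2, 2 of these SNT-side cells exceeded every control cell of the class. The higher, at 134.5 CPM, also exceeded every control cell of day 7. Mean Hcn3 was 12.2 ± 10.4 and 15.8 ± 18.2 CPM (log2 0.35), and mean Hcn4 was 1.70 ± 2.89 and 1.39 ± 1.90 CPM (log2 −0.18). The Hcn4 ratio of this class was 1.66 with a P2rx3 limit of 1 CPM, which moves 12 SNT-side and 3 control cells into it. The difference in ratio between the P2rx3 classes was not tested.

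To compare levels between the 3 genes, CPM was divided by the length of the principal transcript, 3195 bases for Hcn2, 4002 for Hcn3 and 6118 for Hcn4. In control cells of day 3 the means were 7.2 ± 10.5, 5.84 ± 5.13 and 0.707 ± 1.18 CPM per kb (SD over cells), and Hcn2 and Hcn3 overlapped. The genes were read in the same cells, and no difference between genes was tested. In SNT-side cells of day 3 Hcn3, Hcn2 and Hcn4 averaged 5.42 ± 3.56, 3.89 ± 4.94 and 0.837 ± 1.23 CPM per kb, and Hcn2 and Hcn3 again overlapped. At day 7 the order of means was Hcn2, Hcn3, Hcn4 on both sides. The means were 12 ± 10.8, 3.49 ± 4.23 and 0.225 ± 0.383 CPM per kb in control cells. In SNT-side cells they were 24.9 ± 26.4, 4.08 ± 4.36 and 1.22 ± 1.44 CPM per kb. By these SDs Hcn2 and Hcn3 overlapped on both sides. In pooled libraries Hcn2 had 5.53 ± 1.97 (SNT) and 5.03 ± 4.77 (control) CPM per kb, Hcn3 3.09 ± 1.12 and 3.5 ± 0.686, and Hcn4 0.335 ± 0.13 and 0.418 ± 0.141.

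The gene with the highest level per kb in a cell differed between the P2rx3 classes on the SNT side at day 3, and less clearly in control cells. On the SNT side Hcn3 led in 23 of 27 cells above the limit and Hcn2 in 10 of 14 cells at or under it. In control cells above the limit Hcn3 led in 9, Hcn2 in 6 and Hcn4 in 1 of 16. At or under the limit there were only 2 control cells, and Hcn2 led in 2 of 2. At day 7 Hcn2 led in 11 of 14 control and 28 of 33 SNT-side cells. Counts of all 3 genes occurred together in 9 of 18 control and 23 of 41 SNT-side cells at day 3, and in 3 of 14 and 20 of 33 at day 7.

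Hcn2 and Hcn3 ran in opposite directions along Nefh. Spearman's rank correlation of Hcn2 with Nefh was 0.53 over the 59 cells of day 3 and 0.63 over the 47 cells of day 7. For Hcn3 it was −0.60 and −0.64. Within the SNT side alone the rank correlation with Nefh was 0.65 and 0.73 for Hcn2 and −0.67 and −0.63 for Hcn3 at days 3 and 7, and within the control side 0.27 and 0.43 for Hcn2 and −0.53 and −0.76 for Hcn3. These cells share their sample, sides and sequencing run, and the coefficients are descriptions.

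**Figure D3:**
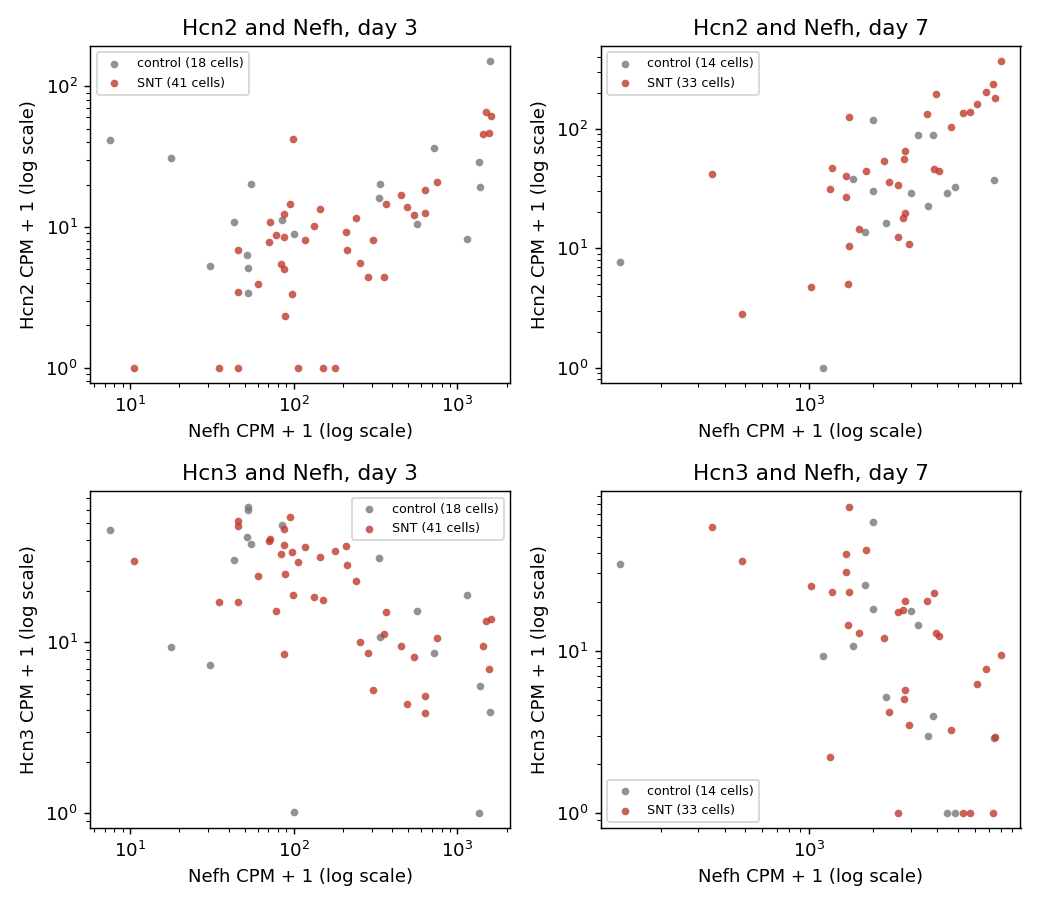
CPM + 1 of Hcn2 (upper panels) and Hcn3 (lower panels) against CPM + 1 of Nefh in each kept cell, with log axes, at day 3 (left) and day 7 (right), gray for control and red for SNT. Hcn2 rises with Nefh (rank correlation 0.53 and 0.63) and Hcn3 declines (rank correlation −0.60 and −0.64).

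With P2rx3, the rank correlation was −0.41 and −0.36 for Hcn2 at days 3 and 7, and 0.63 and 0.11 for Hcn3. Ldhb, a lactate dehydrogenase subunit and a marker of large myelinated neurons, had a rank correlation of 0.53 and 0.68 with Hcn2 and of −0.59 and −0.30 with Hcn3. The other 5 markers of this kind, Pvalb, Ntrk2, Ntrk3, Spp1 and Cacna1h, gave 0.19, 0.41, 0.39, 0.38 and 0.14 with Hcn2 and −0.34, −0.43, −0.52, −0.39 and −0.02 with Hcn3 at day 3. At day 7 they gave 0.38, 0.01, 0.50, 0.42 and 0.19 with Hcn2 and −0.38, 0.28, −0.19, −0.29 and 0.21 with Hcn3. Over both sides together, Ntrk2 and Cacna1h thus did not follow Nefh there. Within control cells of day 7 Ntrk2 gave 0.50 with Hcn2 and −0.30 with Hcn3, and Cacna1h 0.43 and 0.30. Within SNT-side cells Ntrk2 gave −0.13 and 0.58, and Cacna1h 0.09 and 0.19. Ntrk3 with Hcn3 also changed sign, at 0.53 in control and −0.46 in SNT-side cells. Hcn4 had a rank correlation of −0.23 and 0.06 with Nefh, and of −0.20 and −0.38 with P2rx3. Within control and SNT-side cells Hcn4 gave −0.67 and −0.02 with Nefh at day 3, and −0.22 and 0.19 at day 7. With P2rx3 it gave 0.16 and −0.31 at day 3, and −0.11 and −0.43 at day 7. Over SNT-side cells of day 7, Hcn4 had a rank correlation of 0.54 with Hcn2, 0.64 with Spp1, 0.49 with Ntrk3, 0.41 with Pvalb, 0.31 with Ldhb, 0.19 with Nefh, −0.12 with Cacna1h and −0.14 with Ntrk2. With the injury markers Atf3, Jun, Sox11, Gap43, Sprr1a, Gal, Npy and Ecel1, Hcn4 had 0.33, 0.02, 0.35, −0.21, 0.12, −0.14, 0.16 and 0.11 in these cells, and Hcn2 had −0.14, −0.40, −0.21, −0.61, −0.41, −0.37, −0.41 and −0.33. The rank correlation with Atf3 in SNT-side cells of day 3 was −0.15 for Hcn2, 0.19 for Hcn3 and −0.15 for Hcn4. The coefficient with the total count of the cell was −0.05 for Hcn2, −0.09 for Hcn3 and 0.14 for Hcn4 at day 3, and 0.02, 0.45 and −0.11 at day 7. Within sides at day 3 it was −0.12, 0.38 and 0.51 in control and 0.21, −0.36 and −0.11 in SNT-side cells, in the same order of genes, so the values over both sides hide opposite signs. With the number of genes that had a count, Hcn2, Hcn3 and Hcn4 gave 0.58, −0.31 and −0.28 in control and 0.40, −0.59 and −0.15 in SNT-side cells of day 3. At day 7 these were −0.13, −0.27 and −0.21 in control and −0.11, 0.22 and −0.37 in SNT-side cells.

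The genes most like each HCN gene were taken by rank correlation over the 59 cells of day 3, among about 9640 genes above 10 CPM in at least 30% of them. For Hcn2 they included the ATP synthase subunit Atp5o (0.69 at day 3, 0.73 over the 47 cells of day 7), Dnlz (0.67, 0.38), the cytochrome oxidase subunit Cox7a2 (0.66, 0.64) and the ATP synthase subunit Atp5j (0.66, 0.77). For Hcn3 they were Klf13 (0.74, 0.53), Ahctf1 (0.73, 0.18), Tmem158 (0.70, 0.34), the potassium channel Kcnk12 (0.69, 0.35) and Ptprt (0.67, −0.06). For Hcn4 they were Lzts3 (0.65, −0.20), Avl9 (0.53, −0.02), the scaffold Akap12 (0.51, −0.10), Parp4 (0.51, 0.45) and Ncoa2 (0.49, 0.34). The rank correlation at day 7 was above 0.3 for all 4 genes named for Hcn2, against 3 of 5 for Hcn3 and 2 of 5 for Hcn4.

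The markers of cell type at the ends of these comparisons moved too. The summed level of the 7 markers of large myelinated neurons had a median of 385 and 371 CPM in control and SNT-side cells of day 3 and of 3890 and 3360 CPM at day 7, with Nefh holding the largest part of each. Under these sums some single markers differed in mean level between sides at day 7, and not all in the same direction. Mean Pvalb was 4.05 CPM in control and 160 CPM in SNT-side cells, Spp1 32.7 and 480 CPM and Ntrk3 68.7 and 157 CPM. The medians lay closer, at 4.18 and 11 CPM for Pvalb and 2.3 and 10.3 CPM for Spp1. Mean Nefh was 2950 and 3220 CPM and mean Ldhb 603 and 661 CPM. Mean Ntrk2 (225 and 191 CPM) and mean Cacna1h (43.3 and 34.2 CPM) were lower on the SNT side. By the sums of the 7 markers, cells of day 7 were richer in them than cells of day 3 on both sides. The 6 markers of non-peptidergic nociceptors had a median sum of 2120 and 1240 CPM at day 3 and of 153 and 113 CPM at day 7, and of these Mrgprd was at 0 in every SNT-side cell of day 7. The 10 glial markers summed to medians of 1870 and 2230 CPM at day 3 and 2270 and 1590 CPM at day 7, led by Pmp22 except in SNT-side cells of day 7, where S100b led. The 8 immune markers summed to medians of 1.42, 7.9, 0 and 5.13 CPM in the same order. Their part in the HCN values was not tested.

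Genes around the channels were described in the pools by 5 lists, whose median log2 changes stand beside 0.02, and whose counts beside 16% called, for all genes tested. Markers of cell type moved in the same libraries: 5 of 6 markers of non-peptidergic nociceptors were lower on the SNT side (median −3.18), as were 4 of 4 of C-fiber low-threshold mechanoreceptors (−2.95). Gfra2 (log2 −4.48) belongs to both lists and is counted in each. Of 7 markers of large myelinated neurons 2 were higher (1.11), and of 10 glial markers 4 were lower and 1 higher (−0.51). Of 14 HCN partner genes 10 were tested, 1 rose and 0 fell, with a median of −0.10 (−0.26 to −0.05 over the other settings). The riser was Apba2, encoding an adaptor protein, at 94.3 ± 12.4 CPM in SNT and 30.6 ± 13.8 CPM in control libraries (log2 1.58, SE 0.26, adjusted p = 7.8e-06 by edgeR). Vapa stood at 276 ± 68.2 and 284 ± 22.5 CPM (log2 −0.03, adjusted p = 0.91). Pex5l, which encodes the auxiliary subunit TRIP8b, stood at 14.7 ± 4.05 and 28.6 ± 18.5 CPM and was not called (log2 −0.93, SE 0.41, adjusted p = 0.096). Pex5l was named after its value was seen.

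Of 10 adenylyl cyclases, the makers of cyclic AMP, 8 were tested, 2 rose and 1 fell, with a median of 1.26, or 0.91 with Adcy10, which had no count on the control side, set at its bound of 3 control counts (0.60 to 1.76 over the other settings). Adcy2 rose from 2.5 ± 1.77 CPM to 19.5 ± 5.84 CPM (log2 2.80, SE 0.60, adjusted p = 0.0004) and Adcy3 from 3.05 ± 1.88 to 14.1 ± 4.35 CPM (log2 2.16, SE 0.62, adjusted p = 0.0083). Adcy5 fell from 19.5 ± 8.18 to 7.1 ± 3.2 CPM (log2 −1.51, SE 0.49, adjusted p = 0.019), and this call was lost with DESeq2 and with limma. It was also lost without SNT library 1, control library 1 or control library 2, and that of Adcy3 without SNT library 1. Adcy9 stood at 28.4 ± 12.9 and 14.1 ± 7.7 CPM (log2 1.0, adjusted p = 0.062).

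Of 16 phosphodiesterases, which break cyclic AMP down, 14 were tested, 3 rose and 3 fell, with a median of −0.23. This median changed sign with limma (0.12), the replicate block (0.05), no filter on low counts (0.41), a mean of at least 10 CPM (0.96) and without control library 2 (0.51). Pde4b rose from 24.3 ± 7.03 to 128 ± 2.34 CPM (log2 2.43, SE 0.24, adjusted p = 1.9e-10), and Pde1c from 84.6 ± 10.1 to 275 ± 29.8 CPM (log2 1.70, SE 0.17, adjusted p = 3e-10). Pde2a rose by a log2 of 1.10 (adjusted p = 0.0048), a call lost with library size alone and without control library 2. Pde4d fell from 55.2 ± 18.9 to 21 ± 1.97 CPM (log2 −1.40, SE 0.30, adjusted p = 0.00041), and Pde11a from 8.84 ± 3.59 to 0.485 ± 0.463 CPM (log2 −4.02, adjusted p = 0.0027). Pde4a fell by a log2 of −1.92 (adjusted p = 0.037), a call lost with DESeq2 and without any 1 of SNT libraries 1 and 2 and control libraries 2 and 3.

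Of 15 genes of G proteins and Gs-coupled receptors 13 were tested, 2 rose and 3 fell, with a median of −0.60 (−0.77 to −0.32 over the other settings). The adenosine receptor Adora2b rose from 6.94 ± 3.2 to 26.9 ± 1.82 CPM (log2 1.91, adjusted p = 0.00086). Adora2a, with 38 counts over the SNT libraries and 0 over the control libraries, was at least 6.06-fold higher against a bound of 3 counts over the control libraries (adjusted p = 0.0013). In single neurons Adora2a ran the other way, with means of 11.1 CPM in control and 5.35 CPM in SNT-side cells at day 3 and of 3.2 and 0.609 CPM at day 7. Gnao1, encoding the G protein subunit Go, fell from 804 ± 17 to 322 ± 13 CPM (log2 −1.32, adjusted p = 7.3e-11), the serotonin receptor Htr4 from 51.5 ± 9.03 to 7.94 ± 3.51 CPM (log2 −2.71, adjusted p = 1.8e-07) and the prostaglandin receptor Ptger4 from 24.9 ± 9.3 to 6.55 ± 2.36 CPM (log2 −1.96, adjusted p = 0.0014). Gnas, encoding Gs, was not called at 932 ± 112 and 770 ± 111 CPM (log2 0.28, adjusted p = 0.11).

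Of 14 related channels with a cyclic-nucleotide-binding or homology domain 7 were tested, 1 rose and 1 fell, with a median of −0.76, which was −0.43 with limma and 0.79 with no filter on low counts. Kcnh6 fell from 67.8 ± 5.48 to 16 ± 7.36 CPM (log2 −2.05, SE 0.31, adjusted p = 1.3e-06). Kcnh1 rose from 17.4 ± 2.68 to 37 ± 13.2 CPM (log2 1.06, SE 0.35, adjusted p = 0.021), a call lost with library size alone, DESeq2 and limma and without SNT library 1, SNT library 2 or control library 1. Kcnh7 stood at 52.7 ± 14.5 and 88.6 ± 15 CPM, and its log2 change of −0.76 was within the limit of 1 (adjusted p = 0.012). The 6 CNG channel genes were near silent, and of them only Cngb1 passed the filter on low counts.

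Of the 17 genes of these lists called in the pools, 14 had the same sign in the mean levels of day 3 cells and 10 in those of day 7 cells. The share with the same sign among all genes called in the pools was not computed. These counts therefore describe the 17 genes and are not a result about the lists. At day 3 the 3 others were Adora2a, Pde2a, with 62.5 CPM in control and 44.2 CPM in SNT-side cells, and Adcy2, with 14.8 and 14.2 CPM. At day 7 the 7 others were Adora2a, Pde2a, Adcy5, Pde4a, Pde4d, Pde11a and Kcnh6.

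Upstream sequence was looked up for all 3 genes in RefSeq's promoter table on GRCm38.p6, which matched 2 of them, Hcn2 and Hcn4. Hcn3 was unmatched and gives no comparison. A link between these sequences and the levels in cells was not tested. The 250 bases before each start, on the plus strand, lie at chr10:79716384-79716633 for Hcn2 and chr9:58822699-58822948 for Hcn4. Capitals mark matches to the GC box GGGCGG on either strand.
Hcn2: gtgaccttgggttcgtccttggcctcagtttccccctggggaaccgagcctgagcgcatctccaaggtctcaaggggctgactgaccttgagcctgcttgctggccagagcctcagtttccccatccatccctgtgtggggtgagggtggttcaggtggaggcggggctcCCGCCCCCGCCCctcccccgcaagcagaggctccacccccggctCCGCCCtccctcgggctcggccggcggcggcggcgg
Hcn4: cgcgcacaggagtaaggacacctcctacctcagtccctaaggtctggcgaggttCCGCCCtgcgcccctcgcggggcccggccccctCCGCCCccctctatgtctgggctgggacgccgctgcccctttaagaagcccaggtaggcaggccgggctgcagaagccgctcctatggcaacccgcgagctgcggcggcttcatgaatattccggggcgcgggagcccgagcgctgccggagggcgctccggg
Both windows are rich in G and C, 70.4% for Hcn2 and 71.2% for Hcn4 against a median of 52.4% over 32851 promoters. Hcn2 held 3 and Hcn4 2 GC boxes, and 32.7% of promoters hold at least 1. The other motifs searched on both strands were the AP-1 motif TGANTCA (6.75% of promoters), the CRE TGACGTCA (1.55%), the shorter TGACG contained in it (17.8%), TATAAA (12.4%) and the E-box CACGTG (6.02%), and these letters occur in neither window.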

How the data were processed

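The authors mapped reads to mm9 with Bowtie2 after base calling by CASAVA 1.8.2, per the submitters' processing notes, and estimated expression on RefSeq exons with RSEM. The deposited tables are named TPM but hold expected counts: the smallest library sums to 223967 and the largest to 2003817, and whole numbers make up 60.7% to 93.6% of the nonzero values of each library (within 1e-09 of a whole number). Pooled counts were rounded, filtered at a mean of at least 1 CPM, scaled by TMM and tested with edgeR 4.0.16 (R 4.3.3, limma 3.58.1), with DESeq2 1.42.0 among the alternatives. Pooled libraries of 1 side differed by more than counting noise (chi-square per gene 2.48 to 3.93) and were kept as 3. Cells were summarised in Python 3.11.15 with numpy 2.4.6, pandas 2.3.3 and scipy 1.17.1, as log2 ratios of mean CPM + 1, and figures were drawn with matplotlib 3.10.9. In cells a gene counts as beyond the limit at a log2 ratio above 1 in either direction.

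The protocol label of the C57BL/6 cells gives 3 days as well as 7 days, and titles were used to set them at day 7. The 2 tables give some genes different symbols, and those of the table without outliers were used. RefSeq lists Hcn3 and Hcn4 as synonyms of each other and symbols were read as current names. Pklr overlaps Hcn3 on the opposite strand and the strand used in counting is not given in the sources used here. Pklr averaged 0.197 CPM or less in every group of cells and 0 in the pools. Lengths are of GENCODE's principal transcript on GRCm38. Spike-in RNAs and another HCN gene were not used here.

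The members and lists were chosen with earlier results of these data known, and the 6 promoter motifs were listed after the promoter sequences had been seen. Genes named are the 3 HCN genes, the called genes and the gene of highest CPM over both sides of each list, 4 or 5 of the 5 genes most like each HCN gene, and cell type markers. SNT-side cells were also divided by Atf3 at 100 CPM, a limit chosen after seeing the data. Alternatives were other scalings, filters, tools and pseudocounts, medians, summed counts, quantile normalization, other P2rx3 limits, all cells with the outliers, each sex, and each library or the highest cell of each side left out.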

Additional observations from a re-analysis of the deposited data

Results flagged for a closer look

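In each HCN gene the P2rx3 classes and sexes that hold 4 to 10 cells were examined for a cell far from the others, 15 sets of values in all, and 3 stood out, all in control cells of day 7. The rule was set to mark about 1 set in 20 by chance. This rate was not checked for skewed values with many zeros, such as Hcn4 in control cells from females, where 5 of 7 had no count. The sets also share cells, so whether 3 of 15 exceeds chance was not tested. Of 6 control cells with P2rx3 at or under 10 CPM, 1 had 117 CPM of Hcn2, and the next had 37.3 CPM. Of 7 control cells from females, 1 had 61.6 CPM of Hcn3 against 24.5 CPM in the next, and another had 7.94 CPM of Hcn4 against 1.67 CPM in the next. The cell with 117 CPM of Hcn2 and the cell with 61.6 CPM of Hcn3 are the same cell.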

How the results depend on the processing

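Of 171 alternatives 164 stayed within 1 SD over cells (single neurons) or kept sign and call (pools), a wide bound, 3 moved beyond it and 4 reversed. In pooled libraries no setting called an HCN gene: adjusted p ran from 0.16 to 0.99 for Hcn2, 0.59 to 0.96 for Hcn3 and 0.77 to 0.97 for Hcn4. Hcn2 changed sign with library size alone (log2 −0.09), without SNT library 2 (−0.20) and without control library 1 (−0.51), and the cause was not tested. With each library left out Hcn2 ran from −0.51 to 1.18, Hcn3 from −0.50 to −0.05, Hcn4 from −0.57 to −0.11 and the called genes from 1879 to 2150. Hcn4 was too low to be tested at a mean of 10 CPM. Library size alone moved the median of all genes from 0.02 to −0.14 and the share of higher calls from 55.4% to 43.7%. Counts of called genes ran from 1649, with fewer genes tested, to 2244.

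Library numbers did not pair the pools: deviations of the same number correlated at 0.132, 0.004 and −0.03. The replicate block gave 2009 called genes against 2157 and called no HCN gene, with log2 changes of 0.37 for Hcn2, −0.19 for Hcn3 and −0.33 for Hcn4.

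In single neurons 22 of 120 alternatives had the other sign. For a ratio beyond 1 this was so once: Hcn2 at day 7 was −0.26 in SNT-side cells with Atf3 above 100 CPM, a division chosen after seeing the data, and the cause was not tested. The Hcn4 ratio of day 7 cells above the P2rx3 limit was 1.66 with a limit of 1 CPM, and the Hcn2 ratio of day 3 cells at or under it was −0.89 with a limit of 100 CPM. With medians, an alternative chosen after seeing the data, the Hcn4 ratio of day 3 cells above the limit was 1.6. The cause was not tested in these 3 cases. Ratios beyond 1 came under it for Hcn2 at day 7 with a pseudocount of 10 CPM (0.88), medians (0.58), summed counts (0.87) and females alone (0.88), for Hcn4 at day 7 with a pseudocount of 10 CPM (0.62), for Hcn2 at day 3 above a P2rx3 limit of 1 CPM (−0.85) or without the highest control cell, added after seeing the data (−0.80), and for Hcn2 at day 7 at or under the limit with medians, also chosen after seeing the data (0.63). Without the highest cell of each side Hcn2, Hcn3 and Hcn4 were at −0.45, −0.01 and 0.36 at day 3 and at 1.09, 0.45 and 2.04 at day 7. No day 7 cell was left out as an outlier and no day 3 control cell had P2rx3 under 1 CPM, so those alternatives gave no value. Low counts limit Hcn4 in every group.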

Other observations

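The 11 day 3 cells that the authors removed as outliers had low totals, with medians of 250190 counts in 4 control cells and 412693 counts in 7 SNT-side cells. Hcn4 had no count in any of them. Hcn3 had no count in the 4 control cells and ran from 0 through 2.49 to 21.8 CPM in the 7 SNT-side cells. Hcn2 was found in 3 of the 4 control cells, at up to 23.5 CPM, and in all 7 SNT-side cells, from 1.5 through 12.4 to 17.4 CPM.

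Pde1a stood at 0.305 CPM in control and 75.0 CPM in SNT-side cells of day 7, and at 1.57 and 16.8 CPM at day 3, with no call in the pools (log2 2.28, SE 1.13, adjusted p = 0.14 by edgeR). Pde4b, which rose in the pools, stood at 16.4 and 31.6 CPM in control and SNT-side cells of day 3 and at 30.3 and 34 CPM at day 7. Apba2 stood at 35.9 and 121 CPM at day 3 and at 50.0 and 98.0 CPM at day 7. Htr4 was lower on the SNT side at both days, at 59.5 and 14.4 CPM at day 3 and 29.4 and 5.91 CPM at day 7. Pde1a was named after its values were seen, and the values in cells have no test.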
